A study of Mus musculus with 8 samples.

Results

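Sarcolipin (Sln), phospholamban (Pln) and the SERCA calcium pumps Atp2a1, Atp2a2 and Atp2a3 were examined in nephron progenitors of the embryonic mouse kidney. These 5 genes were measured by 6 of the 55681 probes of the arrays, found through the accession each probe carries. One probe each measured Sln, Pln, Atp2a1 and Atp2a3, and 2 probes measured Atp2a2. Of these, 5 probes for 4 genes passed a filter on brightness, among 22638 genes of 37018 that did so over the whole array. Sln was chosen by its log2 ratios, as the gene with the largest rise in mutant over wildtype samples, so its difference between the groups is described here without a test. The other 4 genes were chosen as its partners and not by their own values.

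SERCA pumps are ATP-driven enzymes in the membrane of the endoplasmic reticulum, and of the sarcoplasmic reticulum in muscle, that move calcium from the cytoplasm into the lumen. Sarcolipin and phospholamban are small membrane proteins that bind the pump and lower its activity, and sarcolipin also makes the pump spend ATP without moving calcium, which releases heat. Sarcolipin is best known from skeletal muscle and the atria of the heart, phospholamban from the heart, slow skeletal muscle and smooth muscle.

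Mutant kidneys carried floxed alleles of the histone deacetylase genes Hdac1 and Hdac2 (HDAC1&2 f/f) and a Six2CreEGFP transgene. Wildtype kidneys carried unfloxed alleles (HDAC1&2 +/+) and the same transgene, so both groups carried Cre recombinase and EGFP under control of Six2, a gene of the nephron progenitors of the cap mesenchyme. All animals were C57BL/6 at embryonic day 15.5, and EGFP-positive cells were sorted and pooled into 4 mutant and 4 wildtype pools, which the labels call biological replicates. Each pool was labelled with the red dye Cy5 from 0.5 µg of total RNA and hybridised to its own 2-colour Agilent array together with RNA of wildtype pool 1 in the green dye Cy3. Values are log2 ratios of Cy5 over Cy3, and a difference is the mutant mean minus the wildtype mean on that scale. Within each group, pools 3 and 4 were as alike as repeat labellings of one RNA and were counted as 1 sample, which left 3 mutant and 3 wildtype samples.

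In Cy5, 28158 to 33993 probes stood well above background on each of 7 arrays and 46884 on the wildtype 2 array, which also stood apart in Cy3 with 46086 such probes, against 29616 to 34478 on the other arrays. The targeted gene Hdac1 was lower in mutant samples on each of 3 probes, by log2 differences of -0.30, -0.40 and -0.57, and in 3 of 3 pairs of pools with the same number. Whether these probes lie inside the deleted part was not examined, and the brightest did not pass the test (adjusted p = 0.477, limma). Hdac2 had a difference of -0.13 (SE 0.14, adjusted p = 0.84, limma). Of 15 nephron progenitor markers, 14 were well above background on all 8 arrays. So were 14 of 14 interstitial stroma markers, 12 of 12 endothelium markers and 20229 of 37018 genes over the whole array. That count therefore does not single out progenitors. Six2 had a difference of -0.13 (SE 0.14). Cited1, a transcriptional cofactor of the least differentiated progenitors, fell by 2.72 on the log2 scale (adjusted p = 0.00281, limma), and Meox2 passed with the pool number as a block (-1.92, adjusted p = 0.0317). The list of progenitor markers had a median of -0.29, or -0.11 without wildtype pool 2, beside a median of 0.0017 for all genes.

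Sarcolipin RNA was about 6-fold more abundant in mutant than in wildtype progenitors by log2 ratios, and 5.33-fold to 9.43-fold more under other processing. In Cy5 the Sln spot had a median brightness of 1423, 1417, 1554.5 and 1556 on the arrays of mutant pools 1 to 4, against 222, 257.5, 223.5 and 237 on those of wildtype pools 1 to 4. The local background around the spot was 66 to 73 in Cy5. The spot was thus well above background on every array, wildtype included, and the lowest mutant value lay far above the highest wildtype value. After background subtraction it averaged 1419 ± 77.8 on mutant arrays and 166.2 ± 14.6 on wildtype arrays (SD, n = 4 arrays), a ratio of 8.53.

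The Cy3 channel shows how far such values move between arrays when the RNA does not change. The Sln spot had a Cy3 brightness of 147, 130, 144 and 130.5 on the mutant arrays, against 121, 162, 143.5 and 147 on the wildtype arrays, with a local background of 29 to 34. Net of background the Cy3 signal averaged 107.4 ± 8.3 on mutant arrays and 109.9 ± 17.3 on wildtype arrays (SD, n = 4 arrays), and the arrays overlapped. The difference between groups therefore lay in Cy5 and not in the Cy3 signal. The spot was neither saturated nor marked as an outlier on any array.

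**Figure D1:**
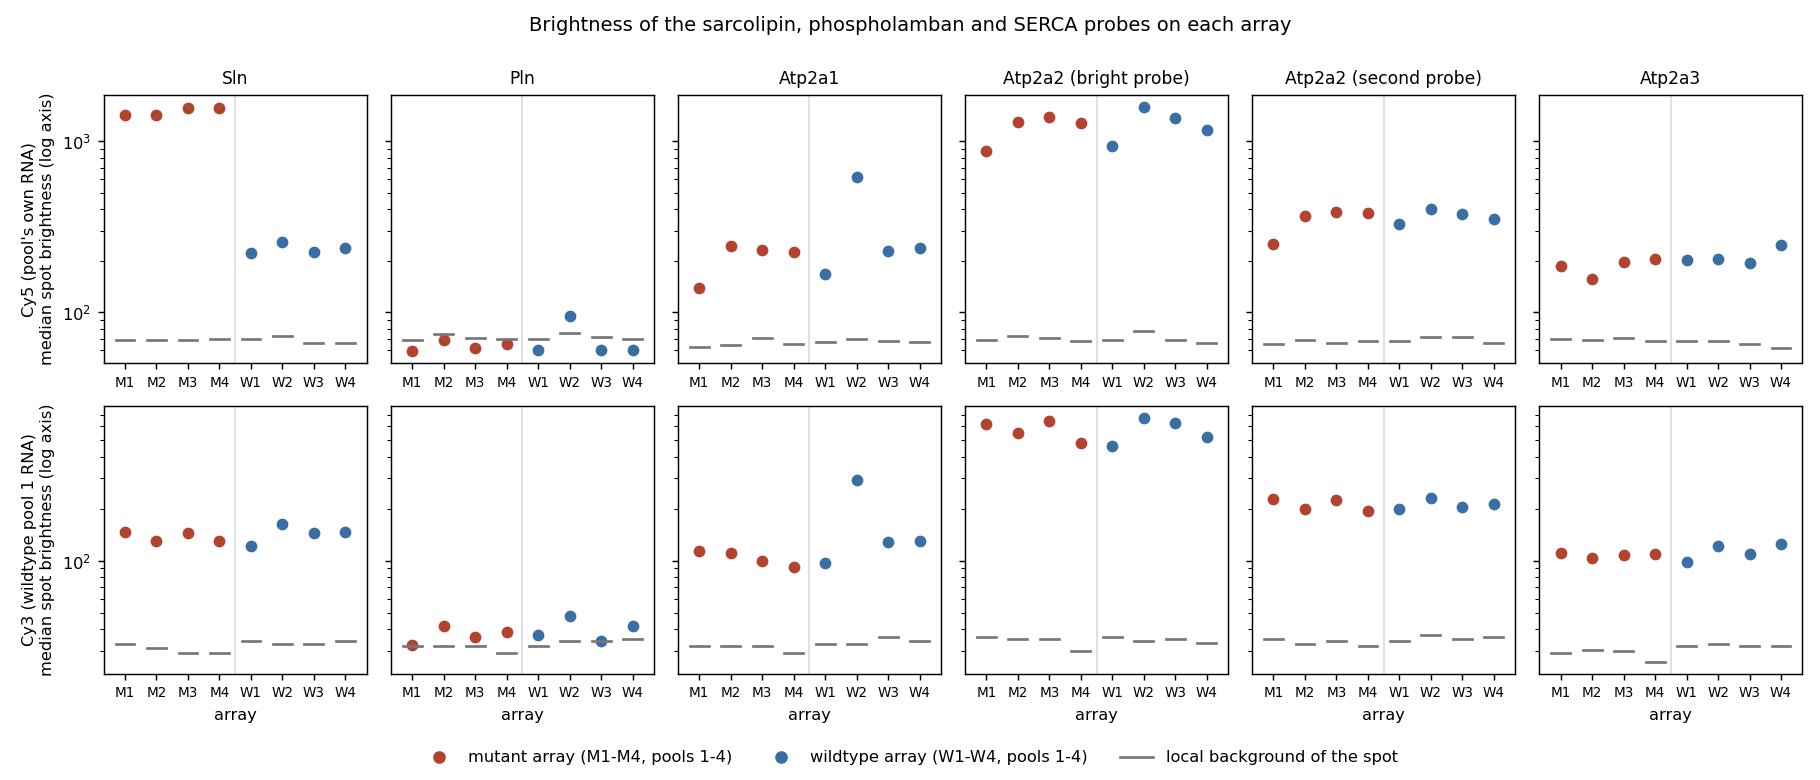
Median spot brightness (log axes) of each probe in Cy5, the pool's own RNA (upper row), and Cy3, RNA of wildtype pool 1 (lower row), on mutant arrays M1 to M4 and wildtype arrays W1 to W4, with grey bars for the local background. Brightness cannot be set side by side between probes. Sln lies between 1417 and 1556 in Cy5 on mutant arrays and between 222 and 257.5 on wildtype arrays, and Pln stays near its background throughout.

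As log2 ratios, Sln stood at 2.73, 2.27, 2.36 and 2.34 in mutant pools 1 to 4 and at 0.06, -0.44, -0.11 and -0.10 in wildtype pools 1 to 4. The wildtype pool 1 array carried the same RNA in both dyes, and its value was near 0. The counted samples averaged 2.45 ± 0.25 in mutants and -0.16 ± 0.25 in wildtypes (SD, n = 3 each), a difference of 2.61 or 6.10-fold. Within pools of the same number Sln was higher in the mutant by 2.67 (pool 1), 2.70 (pool 2) and 2.46 (pools 3 and 4).

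Sln ranked 1st of 22638 genes by its rise, which is the value that chose it. The named genes next below it were the tyrosine phosphatase Ptpn5 at 1.74, the homeobox gene Six3 at 1.74, Lypd1 at 1.59, Nrsn1 at 1.51 and the peptide hormone gene Sst at 1.40. The size of the Sln difference moved with the processing, though its direction did not. It was 3.24 in the authors' deposited table, which is 9.42-fold, and 2.41 or 5.33-fold with arrays centred on spike-in controls, the lowest of 23 other settings. In pooled sorted cells, more cells with Sln RNA and more Sln RNA per cell cannot be told apart.

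Sarcolipin is usually found in striated muscle, and 38 markers of that tissue were followed. Of these 22 were tested, and 0 rose and 0 fell, beside 0.0442% of all genes that passed, so the count says little about these cells. Their median difference was -0.11 (-0.14 to -0.07 with 1 sample or array left out), and their summed normalized Cy5 level was 12476 to 13598 on mutant arrays, against 11786 to 12660 on wildtype arrays other than wildtype 2, which reached 25043. Of the 38 markers, 19 were well above background on all 8 arrays, beside 20229 of 37018 genes over the whole array. Among the 19 were the troponin Tnnt1, with a difference of 0.26 (SE 0.13), and the actin Actc1, with -0.14 (SE 0.09). The myogenic factors Myod1, Myf5 and Myf6 were well above background on 0 of 8 arrays. The same held for the muscle creatine kinase Ckm, the myosin heavy chain Myh2 and the fast light chain Mylpf. The myogenic factor Myog was well above background on 2 mutant and 4 wildtype arrays, and the muscle gene Mymk on 4 and 4. The slow myosin heavy chain Myh7 had a difference of 0.70 (adjusted p = 0.369, limma) and the troponin Tnni1 one of -0.67 (adjusted p = 0.633).

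Markers of other cells that a sort of kidney could hold were read by their medians, since 0 passed beside the same 0.0442% of all genes. Smooth muscle markers (9 tested) had a median of 0.18, which was -0.32 without wildtype pool 2 and 0.56 without mutant pool 2. Medians were 0.23 for interstitial stroma (14 tested), 0.23 for endothelium (12 tested), 0.18 for ureteric bud and collecting duct (14 tested), 0.05 for erythroid cells (11 tested) and -0.02 for leukocytes (11 tested). Single samples moved several of these: without wildtype pool 2 the endothelium median was 0.08, and without mutant pools 3 and 4 the erythroid median was -0.09 and the leukocyte median -0.25. The stroma median was 0.18 to 0.31 with 1 sample or array left out. It was 0.04 with arrays centred on spike-in controls, where the median of all genes moved to -0.19. Summed stroma marker levels were 268433 to 336762 on mutant arrays and 230594 to 285899 on wildtype arrays. The part of these cells in the Sln values was not tested.

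Phospholamban was not detected. The Pln spot had a Cy5 brightness of 59.5, 69, 62 and 65 on the mutant arrays of pools 1 to 4, against 60, 94.5, 60.5 and 60 on the wildtype arrays. Its local background was 69 to 76, so the spot was darker than its surroundings on all arrays but wildtype 2. It was well above background on 0 of 8 arrays in Cy5 and on 0 of 8 in Cy3, and so it was not tested and has no fold change. This probe shows no level in either group at the sensitivity of the array, which does not show that Pln RNA is absent.

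Other small SERCA regulators were mostly not measured. Endoregulin (Smim6), which binds the pump in epithelial cells, had log2 ratios of -0.13 ± 0.50 in mutants and -0.30 ± 0.55 in wildtypes (SD, n = 3 each). The difference of 0.18 was smaller than the spread within either group (SE 0.33, adjusted p = 0.908, limma). Myoregulin (Mrln) and DWORF (Strit1) were matched by no probe. The name of another-regulin (Arln) could not be matched to a gene symbol, so its probes were not looked for.

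None of the 3 pump genes passed the test, beside 0.0442% of all 22638 genes that did (10 genes, with 0.0221% higher and 0.0221% lower in mutants). With the pool number as a block the share was 0.15% of all genes (34 genes, with 0.0353% higher and 0.115% lower in mutants), and still 0 of the 3 pumps passed.

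Atp2a2, the housekeeping pump of most tissues and, as a splice form, the pump of heart and slow muscle, did not differ between the groups beyond the spread of the samples on either of its probes. The brighter probe had a Cy5 brightness of 875.5, 1286, 1378.5 and 1273 on the mutant arrays, against 941, 1572.5, 1371.5 and 1162.5 on the wildtype arrays. Its log2 ratios were 0.12, 0.18 and 0.28 in mutant pool 1, pool 2 and pools 3 and 4, against 0.21, 0.09 and 0.33 in the wildtype samples. The groups overlapped, and array 1 was the dimmest in both.

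The brighter Atp2a2 probe averaged 0.20 ± 0.08 in mutants and 0.21 ± 0.12 in wildtypes (SD, n = 3 each). The difference was -0.01 (SE 0.10, adjusted p = 0.981, limma), with a 95% interval from -0.26 to 0.23, or from 0.835-fold to 1.17-fold. The second probe had a Cy5 brightness of 250, 363.5, 386 and 381.5 on the mutant arrays, against 326.5, 399, 375 and 349 on the wildtype arrays. It averaged -0.15 ± 0.10 in mutants and -0.15 ± 0.19 in wildtypes (SD, n = 3 each), with a 95% interval of the difference from 0.814-fold to 1.23-fold. Sln was chosen for the largest rise, so its difference is no yardstick for these intervals. With Cy5 levels in place of ratios (Cy5 levels alone) the probes moved apart, to 0.24 and 0.47. The median of all genes moved to 0.11 there, and the normalization of these levels still used Cy3.

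**Figure D2:**
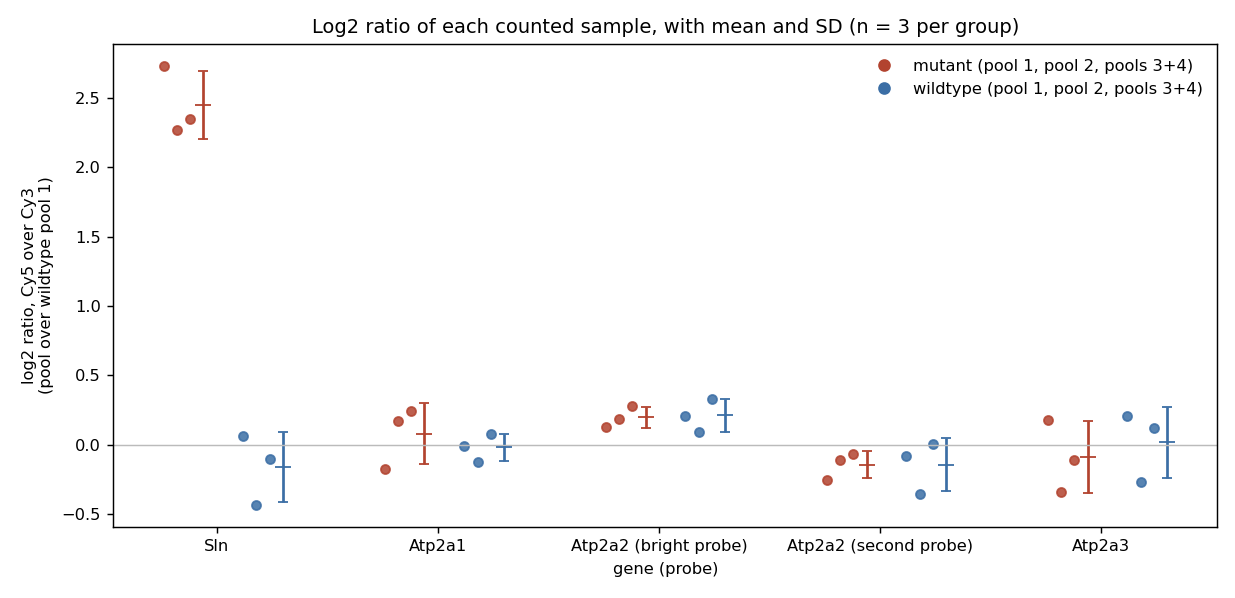
Log2 ratio of Cy5 over Cy3 (vertical axis) in the 3 mutant and 3 wildtype samples (points) with the mean and SD of each group (bars), for each probe above background. Sln samples lie between 2.27 and 2.73 in mutants and between -0.44 and 0.06 in wildtypes, and for every pump probe the groups overlap.

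Atp2a1, the pump of fast skeletal muscle, was measured near the low end of the array's range. Its Cy5 brightness was 138.5, 244.5, 230 and 225.5 on the mutant arrays, against 166.5, 618, 228 and 237 on the wildtype arrays. The wildtype 2 array was high in both dyes, with a Cy3 brightness of 293 against 92 to 130 on the other arrays, so the ratio of that array did not stand out. The log2 ratios were -0.17, 0.17 and 0.24 in the mutant samples, against -0.01, -0.12 and 0.07 in the wildtype samples.

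The Atp2a1 samples of the groups overlapped, with means of 0.08 ± 0.22 in mutants and -0.02 ± 0.10 in wildtypes (SD, n = 3 each). The difference was 0.10 (SE 0.13, adjusted p = 0.867, limma), with a 95% interval from 0.859-fold to 1.34-fold. It was 0.05 without wildtype pool 2 and 0.23 without mutant pool 1, and it turned to -0.10 with arrays centred on spike-in controls, where the median of all genes moved to -0.19. Rabep2, a trafficking gene that overlaps Atp2a1 in the gene table, had a difference of -0.03 (adjusted p = 0.958).

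Atp2a3, a pump of blood, endothelial and many epithelial cells, was also dim. Its Cy5 brightness was 187, 155.5, 197 and 204.5 on the mutant arrays, against 203, 205, 193 and 246 on the wildtype arrays. Its log2 ratios were 0.18, -0.34 and -0.11 in the mutant samples and 0.20, -0.27 and 0.12 in the wildtype samples. Pool 2 was the lowest in both groups, and the mutant value was below the wildtype value in 3 of 3 pairs of pools.

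The Atp2a3 means were -0.09 ± 0.26 in mutants and 0.02 ± 0.25 in wildtypes (SD, n = 3 each). The difference of -0.11 (SE 0.18, adjusted p = 0.895, limma) had a 95% interval from 0.693-fold to 1.24-fold. It was 0.02 without mutant pool 2, -0.25 without wildtype pool 2 and 0.27 with Cy5 levels alone. The interval from 0.693-fold to 1.24-fold belongs to the fit without the pool number and is not a limit of detection. With the pool number as a block the SE was 0.09 (adjusted p = 0.618, limma). The smallest change of Atp2a3 detectable with 3 samples a group was not tested.

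**Figure D3:**
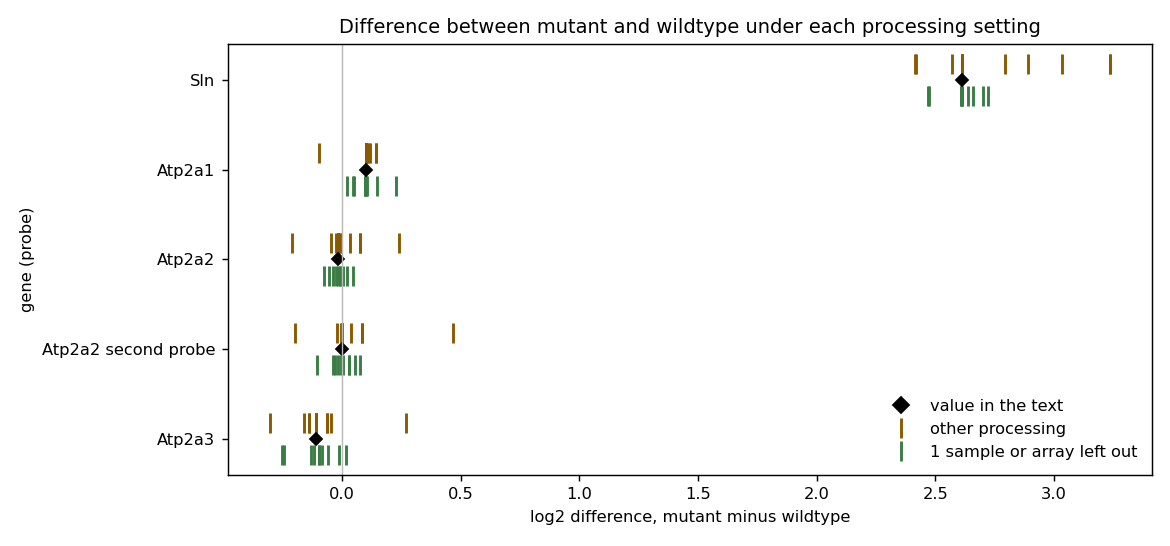
Log2 difference, mutant minus wildtype (horizontal axis), of each probe above background: the value in the text (diamond), values under other processing (brown marks) and values with 1 sample or array left out (green marks). Sln stays between 2.41 and 3.24, and the marks of every pump probe lie on both sides of 0.

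The wider calcium machinery of these cells was followed in 9 lists with 124 genes, of which 108 were tested. By limma's test over all genes 0 rose and 0 fell, also with the pool number as a block, beside the 0.0442% of all genes that passed. At an unadjusted p under 0.05 there were 8 genes, or 7.41% of those tested, beside 7.24% of all genes. With each array taken as its own sample 1 gene passed, the junctophilin Jph4, which ties reticulum to plasma membrane in neurons (0.51, SE 0.08, adjusted p = 0.0224). With 1 sample or array left out, medians ranged from -0.02 to 0.13 for release channels, from -0.02 to 0.06 for reticulum proteins, from -0.02 to 0.14 for pumps and exchangers outside the reticulum and from -0.05 to 0.03 for enzymes acting on phospholamban, on both sides of 0. They ranged from 0.07 to 0.26 for calcineurin and NFAT and from -0.09 to -0.01 for the uniporter.

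Release channels let calcium out of the reticulum again. Of 11 listed, 9 were tested, with a median difference of 0.03. The channel-binding immunophilin Fkbp1a had a difference of -0.02 (SE 0.17), the inositol trisphosphate receptor Itpr3 one of 0.27 (SE 0.17) and the leak channel Tmco1 one of 0.02 (SE 0.10). The heart ryanodine receptor Ryr2 was well above background on 1 wildtype array only and was not tested.

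Calcium-binding proteins and junctional proteins of the reticulum (17 of 21 tested) had a median of 0.01. The lumenal chaperone Hspa5 had a difference of 0.07 (SE 0.17), the reticulocalbin Rcn3 one of 0.19 (SE 0.09) and the chaperone Hsp90b1 one of 0.12 (SE 0.14). The list's largest difference was that of Jph4, at 0.53 with 3 samples a group (SE 0.10, adjusted p = 0.268, limma). The muscle members Casq2 (calsequestrin), Jph1, Jph2 and Trdn (triadin) were below the filter.

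Store-operated entry refills the reticulum from outside when it runs low. All 11 listed genes were tested, 9 had a higher mean in mutants, and the median difference was 0.21, above the 0.0017 of all genes. The reticulum calcium sensor Stim1 had the largest difference, with 0.40 ± 0.42 in mutants and -0.26 ± 0.14 in wildtypes (SD, n = 3 each), or 0.67 (SE 0.21, adjusted p = 0.501, limma). The related sensor Stim2 had a difference of -0.10 (SE 0.17). The partner channels Orai1, Orai2 and Orai3 had differences of 0.41 (SE 0.15), 0.51 (SE 0.22) and 0.21 (SE 0.16). Also among the brightest, the protease Sppl3 and the Stim inhibitor Saraf, had 0.14 (SE 0.13) and 0.02 (SE 0.19). No gene of this list passed. The median was 0.08 without mutant pool 1, 0.33 without mutant pool 2 and 0.01 with arrays centred on spike-in controls. With that centring the median of all genes moved to -0.19, so the list still lay above it.

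Pumps and exchangers outside the reticulum (11 of 15 tested) had a median of 0.04. The Golgi pump Atp2c1 had a difference of -0.01 (SE 0.09), the plasma membrane pump Atp2b1 one of -0.13 (SE 0.25) and the potassium-dependent exchanger Slc24a3 one of 0.28 (SE 0.14).

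Enzymes and scaffolds that act on phospholamban (18 of 19 tested) had a median of -0.01. The catalytic subunits of protein phosphatase 1, Ppp1ca and Ppp1cc, had differences of 0.09 (SE 0.13) and 0.01 (SE 0.09), and the phospholamban-binding protein Hax1 one of -0.26 (SE 0.11, adjusted p = 0.712, limma).

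The calcineurin and NFAT pathway, which reads cytoplasmic calcium, had a median of 0.15 (14 of 15 tested, 10 with a higher mean in mutants). The catalytic subunit Ppp3ca had a difference of 0.31 (SE 0.10, adjusted p = 0.541, limma), the regulatory subunit Ppp3r1 one of 0.24 (SE 0.14) and the transcription factor Nfatc4 one of 0.15 (SE 0.10). The unfolded protein response, which answers stress of the reticulum, had a median of 0.03 (20 of 20 tested). Its transcription factors Atf4 and Xbp1 had -0.02 (SE 0.09) and 0.03 (SE 0.13), and the chaperone Creld2 had 0.16 (SE 0.11).

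The mitochondrial calcium uniporter and its partners (7 of 8 tested) had a median of -0.07. The uniporter subunit Smdt1 had a difference of 0.04 (SE 0.09) and the exchanger Letm1 one of -0.07 (SE 0.10). The list's largest difference was a fall, that of Mcur1 at -0.37 (SE 0.10, adjusted p = 0.412, limma).

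**Figure D4:**
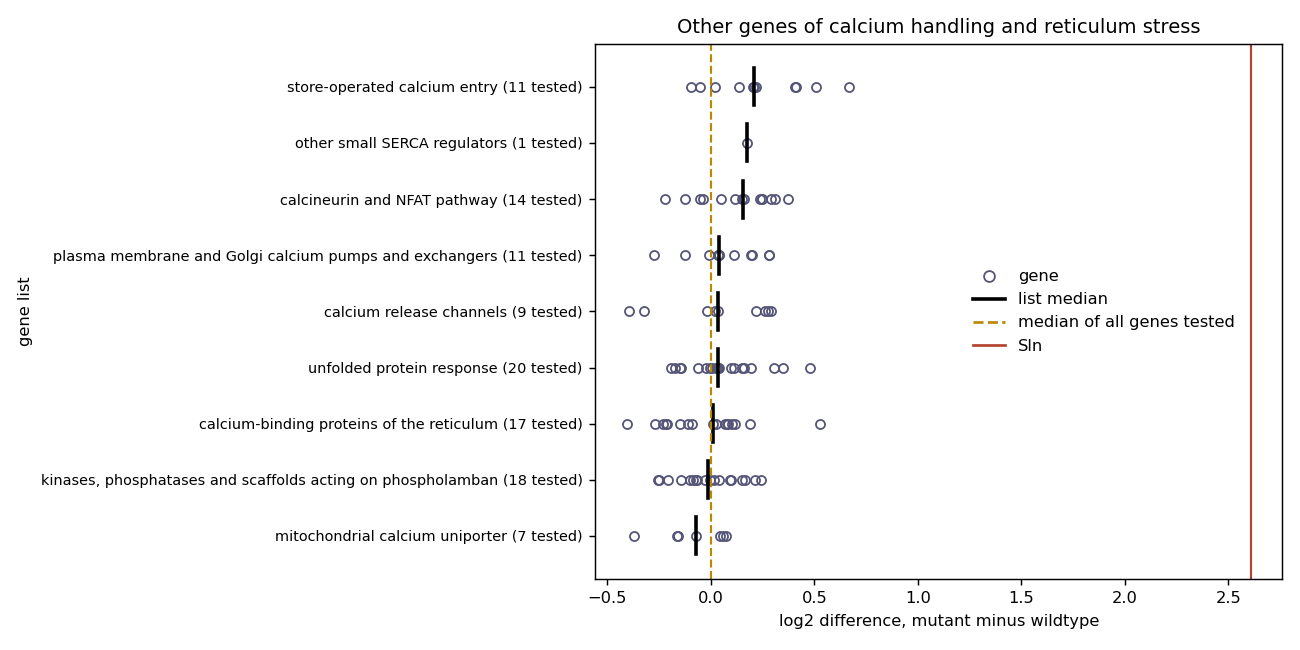
Log2 difference, mutant minus wildtype (horizontal axis), of each tested gene (circles) in 9 lists of calcium handling and reticulum stress, with list medians (black bars), the median of all genes (dashed) and Sln (red line). List medians lie between -0.07 and 0.21, and the listed genes lie between -0.41 and 0.67.

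The genes beside Sln were examined because the array measures each on its own probe. Of the 3 annotated neighbours on either side, 4 are pseudogenes or a long noncoding RNA with no probe, and the other 2 are Slc35f2, a solute carrier next to Sln, and Elmod1, a GTPase-activating protein for Arf family proteins, 3 places away on the other side. Elmod1 was higher in every mutant sample than in any wildtype sample. The share of all genes that separate in this way was not counted. With 3 samples a group the smallest p of an exact permutation test is 0.1, so separation alone says little. The Cy5 brightness of Elmod1 was 298, 379, 391 and 444 on the mutant arrays, against 144, 176, 173 and 176 on the wildtype arrays.

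The Elmod1 log2 ratios were 1.09, 0.97 and 1.18 in mutants and -0.03, -0.16 and 0.15 in wildtypes, with means of 1.08 ± 0.11 in mutants and -0.01 ± 0.16 in wildtypes (SD, n = 3 each). The difference of 1.09, or 2.13-fold (SE 0.12), missed the threshold by limma's test (adjusted p = 0.0666) and passed with the pool number as a block (adjusted p = 0.0328). Slc35f2 had a difference of -0.06 (SE 0.19, adjusted p = 0.945). Among the 6 nearest genes with a probe on each side, a range set after these values were seen, 8 of 12 were tested. The 7 besides Elmod1 had differences from -0.16 to 0.14 and adjusted p-values from 0.852 to 0.989.

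**Figure D5:**
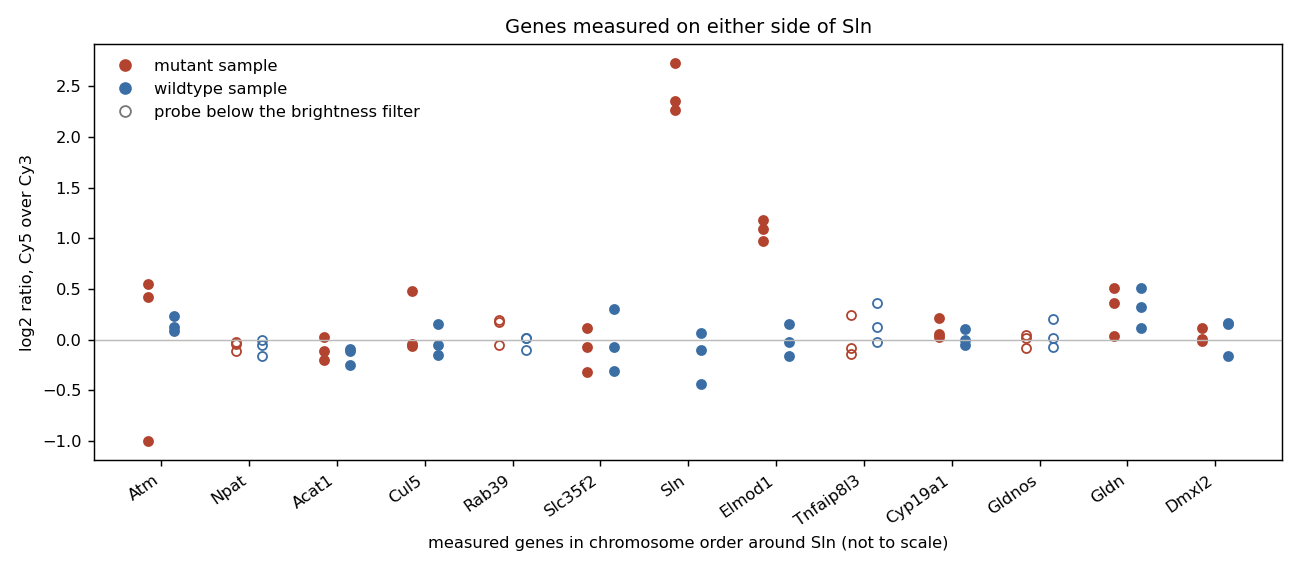
Log2 ratio of Cy5 over Cy3 (vertical axis) in each mutant and wildtype sample for Sln and the 6 nearest genes with a probe on each side, in chromosome order and not to scale (open circles: probe below the brightness filter). Sln lies at 2.27 to 2.73 in mutants and -0.44 to 0.06 in wildtypes, and Elmod1 at 0.97 to 1.18 in mutants and -0.16 to 0.15 in wildtypes.

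Over the 6 counted samples, the genes with ratios most like those of Sln (14820 genes with a symbol compared) were Sfmbt2, a Polycomb group protein, with r = 0.999, the neuronal trafficking gene Nsg2 with r = 0.996, the F-box gene Fbxl16 with r = 0.995, the ubiquitin ligase Traf7 with r = 0.994 and the acyl-CoA thioesterase Acot11 with r = 0.994. Their differences were 0.95, 0.58, 0.63, 0.23 and 0.71. Those most opposed were the meiotic helicase Hfm1 with r = -0.997, the tendon transcription factor Scx with r = -0.995 and the aminotransferase Got1 with r = -0.992, with differences of -0.21, -0.87 and -0.27. These correlations describe 6 samples that fall into the 2 groups by which Sln was chosen, and all share the same Cy3 RNA. Cep85l, which overlaps Pln in the gene table, had a difference of 0.07 (adjusted p = 0.917, limma).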

How the data were processed

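Spot intensity values in the 8 deposited scanner files were made by the authors with Agilent Feature Extraction 10.7.3.1 (submitters' processing notes). The authors' value table holds log10 ratios of Cy5 over Cy3 that matched the scanner files' own (r at least 0.999999). Median spot signals were used, corrected by normexp with an offset of 50 and by loess within each array (limma 3.58.1, R 4.3.3), and expressed as log2 ratios. Probes had to be well above background in Cy5 on 3 or more of the 4 arrays of a group. The brightest probe stood for a gene. Accessions were matched to a RefSeq gene table (GRCm38.p6), which named 27509 probes with 20887 symbols. The array annotation uses another build, so no coordinates are given.

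The comparison used limma's lmFit and eBayes (two-sided, Benjamini-Hochberg over all 22638 genes, threshold 0.05). The code was tested on simulated data. With 3 samples a group, the smallest p of an exact permutation test is 0.1. Between log2 levels of 10 and 12, Cy5 of pools 3 and 4 differed by a median absolute deviation of 0.0896 in mutants and 0.0838 in wildtypes, against 0.0675 to 0.116 for Cy3 (21 pairs without wildtype 2, which reached 0.148 in Cy3) and 0.163 to 0.525 for the other 19 such Cy5 pairs. The number of arrays limits the precision, and the signals give no count of molecules. The labels do not say whether pools share animals, so p-values may measure technical spread in part. Same-numbered samples deviated together across genes (r = 0.495, 0.542 and 0.527), which was taken as pairing by pool number. All arrays lie on 1 slide, with mutant arrays in one row and wildtype arrays in the other, and position on the slide and group cannot be told apart.

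Members and lists were chosen with earlier results of these data known. Named are all members, all other small SERCA regulators, in each other calcium list the genes that passed and the 3 brightest, the 5 genes most like Sln and the 3 most opposed, the 3 neighbours on each side of Sln and genes that overlap a member. Jph4, Stim1, Stim2, Orai1, Orai2, Mcur1, the markers and the wider set of neighbours were named after their values were seen. One gene that the rule names is not reported here. The alternatives were 23 other settings of background correction, normalization, filter, probe choice, variance model, block and samples left out.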

Additional observations from a re-analysis of the deposited data

How the results depend on the processing

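The Sln difference was positive under all 23 other settings. It was 2.89 with a background offset of 16, 3.24 with Agilent's processed signals, 3.24 in the authors' deposited table and 3.03 with Cy5 levels alone, and 2.47 to 2.72 with a sample or array left out. No pump passed the test under any setting. The brighter Atp2a2 probe turned positive with processed signals (0.0768), the deposited table (0.0768), median centring (0.0356) and Cy5 levels alone (0.238), and ranged from -0.0745 (without wildtype pool 2) to 0.0455 with a sample or array left out. Its second probe did so under the same settings (0.0840, 0.0847, 0.0363 and 0.466), and ranged from -0.107 to 0.0750. The median of all genes moved to 0.0325, 0.0325, 0.0737 and 0.112 under these 4 settings. With median centring both Atp2a2 probes thus lay below the median gene. Atp2a3 turned positive with Cy5 levels alone (0.269) and ranged from -0.252 to 0.0169 with a sample or array left out. Atp2a1 turned to -0.0967 with arrays centred on spike-in controls, where the median of all genes was -0.193. It ranged from 0.02 to 0.23 with a sample or array left out. Pln was well above background on 0 of 8 arrays, so no difference is given for it.

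Over all genes 10 passed, against 257 with each array as its own sample, 34 with pool numbers as a replicate block, 5 with spike-in centring, 1 with Cy5 levels alone, 5 with a trended robust variance model and 1 to 10 with a sample or array left out. The calcium lists had 0 passing genes, against 1 with each array as its own sample. The block changed no call of a pump or calcium list. Elmod1 passed under 2 of 23 settings, the block (adjusted p = 0.0328) and each array as its own sample (adjusted p = 0.00193), and its adjusted p reached 0.754. Its difference was 0.90 to 1.65 over the settings. Causes of these shifts were not tested. Low brightness limits Pln, Atp2a1, Atp2a3 and the wildtype values of Sln, and 3 samples a group limit all tests.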
